A study of Homo sapiens with 4 samples.

Results

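The 10 genes of Polycomb repressive complex 2 (PRC2) were followed in A673, an established Ewing sarcoma line of human origin that depends on the EWS-FLI1 fusion protein. They were taken by name as EZH1, EZH2, EED, SUZ12, RBBP4, PHF1, PHF19, MTF2, JARID2 and AEBP2, and all 10 had a row among the 60617 genes of the table. A673 cells had been given CBL0137 at 1 µM for 24 h, or DMSO, its solvent, for the same 24 h, with 2 RNA-seq libraries per condition. CBL0137 belongs to the curaxins, small molecules that bind DNA and hold the histone chaperone FACT on chromatin. The labels name no genetic change in either group, and a single line stands for the disease.

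PRC2 places methyl groups on H3K27, a lysine in the tail of histone H3, and genes packed in chromatin with this mark stay silent. EZH2 or its relative EZH1 carries out the reaction, SUZ12 is the scaffold, EED binds the finished mark and stimulates the enzyme, and RBBP4 binds histones. This core joins either a Polycomb-like protein (PHF1, PHF19 or MTF2), which helps it to reach and stay on chromatin, or JARID2 and AEBP2, which tie it to nucleosomes that carry ubiquitin on histone H2A. In Ewing sarcoma EZH2 is known as a gene that EWS-FLI1 switches on and that keeps the cells undifferentiated.

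Reads assigned to genes numbered 20483714 and 22817617 in the CBL0137 libraries and 23373554 and 23031963 in the DMSO libraries. Replicates were not copies of each other: chi-square over its degrees of freedom was 2.57 between the CBL0137 libraries and 2.07 between the DMSO libraries, against 20.8 across the conditions for replicate 1. The labels do not say that replicates were separate cultures, so p-values here reflect only how far libraries of a group lie apart, and that may be technical. All 7 Ewing sarcoma markers were well counted, with a summed level of 2943 to 2999 CPM (a gene's count scaled to a common library total, with TMM factors) in CBL0137 and 3054 to 3063 CPM in DMSO. Of the blood cell markers, PTPRC had 0 and 0 counts in the CBL0137 libraries and 1 and 1 in the DMSO libraries, and CD3E had 0 counts in every library. The epithelial list summed to 0.380 to 0.474 CPM in CBL0137 and 0.710 to 0.830 CPM in DMSO, with GRHL2 at 0 counts in every library. Of the endothelial list, 3 genes had a row. KDR alone measured 5.28 and 6.98 CPM in CBL0137 and 5.77 and 5.63 CPM in DMSO. The list summed to 6.23 to 7.72 CPM in CBL0137 and 5.81 to 5.94 CPM in DMSO, most of it from KDR. CDH5 was its only call, with 19 and 17 counts in CBL0137 and 4 and 3 in DMSO, and it lost the call without DMSO replicate 2 (edgeR adjusted p = 0.0523). No endothelial gene was called under DESeq2, with a filter of 1 CPM or on FPKM. CDH5 had no adjusted p under DESeq2, with the filter of 1 CPM or on filtered FPKM, so it could not be called there. On unfiltered FPKM it did not pass the test (limma adjusted p = 0.122).

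The comparison asked whether the transcripts of this silencing complex changed when the cells met a FACT-trapping compound. The 3 Polycomb-like genes fell, PHF1 most, while EZH2, EED, SUZ12 and AEBP2 did not pass the test. EZH1 and RBBP4 fell on the count scale, each by less than PHF1 and PHF19, and JARID2 rose slightly. In RNA from a whole culture, fewer cells that make a transcript and less transcript per cell cannot be told apart. Every member passed the count filter. Of the 10, PHF1 alone was called, meaning an edgeR adjusted p under 0.05 with a fold change above 1.5, and it was lower in CBL0137. Among all 17309 tested genes 9.61% were called, 2.73% lower and 6.88% higher, so a single call in 10 is near the background. At an adjusted p under 0.05 alone, 5 members were lower and 1 was higher, against 19.0% of all tested genes lower and 17.5% higher (36.5% in all). The median log2 fold change was -0.13 over the 10 members and 0.003 over all tested genes. DESeq2 also called PHF1 and no other member, and under it 4 members passed the adjusted p, without JARID2 and MTF2. In 8 members the values of the groups did not overlap, as in 66.9% of all tested genes.

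**Figure D1:**
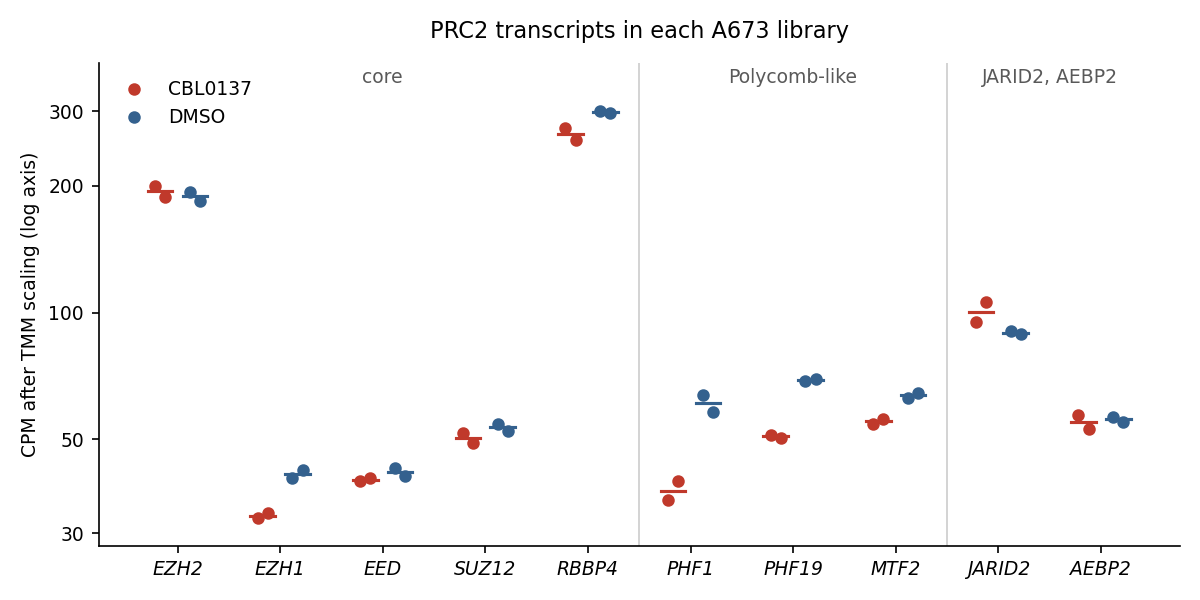
Level of each PRC2 transcript in CPM after TMM scaling (log axis) in the 2 CBL0137 and 2 DMSO libraries of A673 cells, with points as libraries and bars as means, not divided by gene length. PHF1, PHF19 and MTF2 lie lower in both CBL0137 libraries than in both DMSO libraries, while EZH2 and AEBP2 overlap.

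EZH2, the main H3K27 methyltransferase of dividing cells (ENSG00000106462, chromosome 7, 148504349 to 148581413 on the minus strand in GRCh37), measured 199 and 188 CPM in the CBL0137 libraries and 194 and 184 CPM in the DMSO libraries. The groups overlapped. Its log2 fold change was 0.04 ± 0.04 (SE, n = 2 per group here and below), and edgeR gave an adjusted p of 0.507 (Benjamini-Hochberg, as for every adjusted p here). The 95% interval ran from 0.967 to 1.09-fold, so a change as large as the 1.5-fold limit lies outside it. The sign turned without CBL0137 replicate 1 and without DMSO replicate 2, to -0.007 in each case. MKI67, the proliferation antigen, was at 642 and 637 CPM in CBL0137 against 1053 and 1054 CPM in DMSO in the same libraries, at -0.72 ± 0.03 on the log2 scale (edgeR adjusted p = 3.7e-15).

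EZH1, the related enzyme that is more prominent in cells that divide little, fell on the count scale. It measured 32.5 and 33.4 CPM in CBL0137 and 40.6 and 42.4 CPM in DMSO (ENSG00000108799, chromosome 17, 40852293 to 40897067, minus strand). Both CBL0137 libraries lay below both DMSO libraries. It fell by 0.33 ± 0.07 on the log2 scale (edgeR adjusted p = 0.00035), inside the fold limit, and it kept its sign in every count-based alternative, at -0.37 to -0.27. The deposited FPKM of EZH1 did not show this fall. It was 4.28 and 6.44 in CBL0137 and 4.70 and 3.50 in DMSO, with overlapping groups. The FPKM of EZH1 for a given CPM differed up to 2.34-fold between libraries, against 1.04-fold for EZH2. With a gene length held the same in all libraries, FPKM for a given CPM would vary alike for all genes. The deposited FPKM is therefore not a plain rescaling of these counts, and FPKM ranks and ratios carry this limit.

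EED, which reads trimethylated H3K27 (ENSG00000074266, chromosome 11, 85912254 to 85989855), measured 39.8 and 40.4 CPM in CBL0137 and 42.7 and 41.0 CPM in DMSO. The scaffold SUZ12 (ENSG00000178691, chromosome 17, 30264026 to 30328057) measured 51.7 and 49.0 CPM in CBL0137 and 54.5 and 52.4 CPM in DMSO. In both genes the CBL0137 libraries lay just below the DMSO libraries. Neither passed the test, at log2 fold changes of -0.06 ± 0.06 for EED and -0.09 ± 0.06 for SUZ12 (edgeR adjusted p = 0.503 and 0.275), and EED was at 0.0013 when scaled by library size alone. Their 95% intervals, 0.875 to 1.05-fold for EED and 0.865 to 1.03-fold for SUZ12, leave out a 1.5-fold fall. SUZ12 has a transcribed partial copy, SUZ12P1, at 160 and 195 counts in CBL0137 and 170 and 180 in DMSO. SUZ12 itself had 1087 and 1137 counts in CBL0137 and 1246 and 1182 in DMSO, and its level is uncertain to the extent that reads of the copies could be exchanged.

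RBBP4, a histone-binding subunit that PRC2 shares with other chromatin complexes, fell slightly. It measured 274 and 257 CPM in CBL0137 and 301 and 298 CPM in DMSO (ENSG00000162521, chromosome 1, 33116743 to 33151812). The groups did not overlap, and the change was -0.18 ± 0.04 in log2 (edgeR adjusted p = 0.00067). Its 7 annotated processed pseudogenes held at most 3 counts each in a library, and reads that match RBBP4 and such a copy equally could be lost. Its FPKM of 47.5 and 26.3 in CBL0137 and 28.2 and 39.9 in DMSO overlapped, and differed up to 1.85-fold between libraries for a given CPM. RBBP7, a close relative that can take its place, measured 135 and 128 CPM in CBL0137 and 191 and 192 CPM in DMSO, at -0.54 ± 0.04 (edgeR adjusted p = 1.3e-10), a larger fall than that of RBBP4 but also inside the fold limit.

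**Figure D2:**
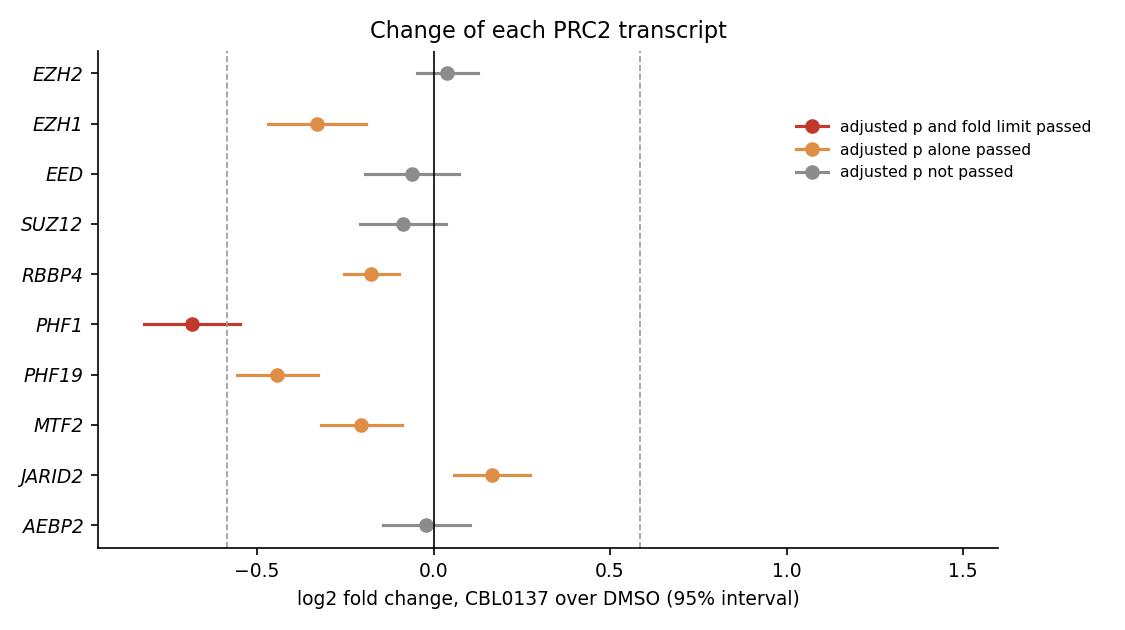
Log2 fold change of each PRC2 transcript, CBL0137 over DMSO, with its 95% interval from edgeR's quasi-likelihood fit of 2 libraries per group, dashed lines at a 1.5-fold change and colours for the limits passed. PHF1 alone passes both limits, at -0.69, and EZH2, EED, SUZ12 and AEBP2 pass neither.

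The Polycomb-like genes fell together. PHF1, whose Tudor domain binds methylated H3K36 (ENSG00000112511, chromosome 6, 33378176 to 33384230), measured 35.9 and 39.8 CPM in CBL0137 and 63.7 and 58.1 CPM in DMSO. Both CBL0137 libraries were far below both DMSO libraries. The log2 fold change was -0.69 ± 0.07, or 0.622-fold with a 95% interval of 0.566 to 0.684-fold (edgeR adjusted p = 7.3e-09), and it stayed called without each library in turn, at -0.77 to -0.62. The end of PHF1 overlaps the end of CUTA on the opposite strand, and no source used here says whether strand entered the counting. CUTA had 1560 and 1739 counts in CBL0137 and 1697 and 1513 in DMSO, which overlap. The other annotated genes and pseudogenes that overlap or copy a member and have a row, apart from SUZ12P1, held at most 16 counts in a library.

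PHF19, a Polycomb-like gene often raised in tumours (ENSG00000119403, chromosome 9, 123617929 to 123657174, minus strand), measured 51.3 and 50.5 CPM in CBL0137 and 68.8 and 69.6 CPM in DMSO. The libraries of a group differed by under 1 CPM, and the groups stood well apart. Its log2 fold change was -0.44 ± 0.06 (edgeR adjusted p = 5.3e-07). MTF2, the Polycomb-like protein that binds unmethylated CpG-rich DNA in stem cells (ENSG00000143033, chromosome 1, 93544792 to 93604636), measured 54.4 and 55.9 CPM in CBL0137 and 62.8 and 64.4 CPM in DMSO. It was lower in both CBL0137 libraries, at -0.20 ± 0.06 (edgeR adjusted p = 0.00516), and just missed the limit under DESeq2 (adjusted p = 0.0506). For all 3 genes the deposited FPKM also lay lower in both CBL0137 libraries, at 11.2 and 13.2 against 18.7 and 17.7 in DMSO for PHF1. PHF19 had an FPKM of 19.6 and 16.7 in CBL0137 and 21.9 and 22.5 in DMSO, and MTF2 of 10.2 and 9.91 in CBL0137 and 11.4 and 12.3 in DMSO. On log2(FPKM + 1), limma gave -0.55 for PHF1 (adjusted p = 0.0341, or 0.156 with low FPKM values kept), so with the filter it passed the test but not the fold limit, and PHF19 and MTF2 passed neither (adjusted p = 0.111 and 0.110).

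Start-site sequences are shown for EZH2, which did not pass the test, and for the 3 Polycomb-like genes that fell, so that what they share can be seen. Each is the 300 bases, mostly upstream, that surround a RefSeq transcript start in GRCh38.p14, read on the gene's own strand, and is a reference sequence that was not measured here. Capitals mark a match to an E2F motif (TTTCCCGC, TTTCGCGC, TTTGGCGC or TTTGCCGC) or to the NF-Y motif CCAAT, each on either strand. The EZH2 window with an E2F match lies at chr7:148884242-148884541 (minus), PHF1 at chr6:33410764-33411063 (plus), the PHF19 window with an E2F match at chr9:120877139-120877438 (minus) and MTF2 at chr1:93079033-93079332 (plus). A further EZH2 window, at chr7:148883436-148883735 (minus), held neither motif and is not shown. A further PHF19 window, at chr9:120868862-120869161 (minus), is not shown either. It held a CCAAT match 9 bases before its start and no E2F match.
EZH2: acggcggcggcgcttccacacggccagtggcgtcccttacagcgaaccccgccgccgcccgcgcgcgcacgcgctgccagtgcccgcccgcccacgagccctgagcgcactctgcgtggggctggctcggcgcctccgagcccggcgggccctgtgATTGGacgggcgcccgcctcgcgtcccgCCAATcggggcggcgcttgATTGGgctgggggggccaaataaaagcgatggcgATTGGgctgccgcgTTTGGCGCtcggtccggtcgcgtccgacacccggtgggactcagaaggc
PHF1: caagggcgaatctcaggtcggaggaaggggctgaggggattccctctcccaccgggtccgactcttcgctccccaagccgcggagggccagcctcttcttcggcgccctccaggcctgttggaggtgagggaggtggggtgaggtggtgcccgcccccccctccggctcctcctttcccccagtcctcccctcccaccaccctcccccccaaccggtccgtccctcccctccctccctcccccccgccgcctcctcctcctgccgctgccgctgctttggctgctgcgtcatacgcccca
PHF19: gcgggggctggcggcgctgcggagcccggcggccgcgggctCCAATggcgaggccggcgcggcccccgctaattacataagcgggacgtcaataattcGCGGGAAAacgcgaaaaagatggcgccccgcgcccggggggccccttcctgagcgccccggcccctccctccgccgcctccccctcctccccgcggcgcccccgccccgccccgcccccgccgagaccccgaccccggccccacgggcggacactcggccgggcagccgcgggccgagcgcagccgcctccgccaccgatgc
MTF2: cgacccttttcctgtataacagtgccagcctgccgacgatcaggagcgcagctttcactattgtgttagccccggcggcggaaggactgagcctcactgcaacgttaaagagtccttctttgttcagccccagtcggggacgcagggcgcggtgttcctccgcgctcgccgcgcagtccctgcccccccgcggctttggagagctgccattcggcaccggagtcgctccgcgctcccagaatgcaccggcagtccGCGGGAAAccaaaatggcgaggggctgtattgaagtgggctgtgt
E2F factors drive genes of S phase, and EZH2 is a known E2F target. In EZH2 the match TTTGGCGC begins at base 2 of the transcript, counting its start as 1, and 4 CCAAT matches stand within 94 bases before it. In PHF19 the E2F match GCGGGAAA begins 152 bases before the start, in MTF2 it begins at base 6 of the transcript, and in PHF1 neither motif was found in this window. The 10 members had 14 such windows, with 52.3% to 79.7% G and C. Of these, 6 windows of 6 genes (EZH2, EZH1, SUZ12, AEBP2, MTF2 and PHF19) held an E2F match, or 42.9%, against 4.72% of 17155 windows of tested genes and 3.31% of all 35116. CCAAT stood in 8 of the 14, or 57.1%, against 34.4% of the windows of tested genes and 34.6% of all. A cell cycle homology element (TTTGAA or TTCGAA, either strand) stood in 1, that of SUZ12, or 7.14%, against 12.1% of the windows of tested genes and 16.4% of all. Members with an E2F match were both among those that fell and among those that did not pass the test, and a match of letters does not show a bound site.

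Of the partners of the other form of PRC2, JARID2 rose and AEBP2 did not pass the test. JARID2, a catalytically inactive relative of histone demethylases that guides PRC2 (ENSG00000008083, chromosome 6, 15246300 to 15522273), measured 95.01 and 106 CPM in CBL0137 and 90.2 and 88.8 CPM in DMSO. Both CBL0137 libraries lay above both DMSO libraries, with more spread between them than in DMSO. The log2 fold change was 0.17 ± 0.05 (edgeR adjusted p = 0.0136), and the test was no longer passed under DESeq2 (adjusted p = 0.101), without CBL0137 replicate 2 (0.08, adjusted p = 0.301) or without DMSO replicate 2 (0.15, adjusted p = 0.0884). AEBP2, a zinc finger protein that steadies the complex (ENSG00000139154, chromosome 12, 19556979 to 19873735), measured 57.2 and 52.9 CPM in CBL0137 and 56.6 and 54.96 CPM in DMSO. The groups overlapped, at -0.02 ± 0.06 (edgeR adjusted p = 0.827), with a 95% interval of 0.906 to 1.07-fold.

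Levels of different members were compared per length on a pair of scales, the deposited FPKM and CPM per kilobase of all annotated exons. EZH2 was the highest member in mean FPKM, at 45.3 ± 1.87 in CBL0137 and 42.7 ± 1.33 in DMSO (SD), followed by RBBP4 at 36.9 ± 15.01 in CBL0137 and 34.1 ± 8.29 in DMSO, then PHF19 at 18.2 ± 2.07 in CBL0137 and 22.2 ± 0.420 in DMSO. EZH2 and RBBP4 overlapped in the CBL0137 libraries. PHF1 came below EED in CBL0137 (12.2 ± 1.42 against 12.9 ± 0.762 FPKM, within their spread) and above EED in DMSO (18.2 ± 0.697 against 12.9 ± 0.494 FPKM). MTF2, JARID2, SUZ12 and AEBP2 followed in that order in both groups, with 10.1, 9.10, 7.62 and 6.22 FPKM in CBL0137 and 11.9, 8.43, 7.80 and 6.14 FPKM in DMSO. EZH1 was lowest, at 5.36 ± 1.53 FPKM in CBL0137 and 4.10 ± 0.850 in DMSO, and in CBL0137 it overlapped AEBP2. No other neighbours in this order overlapped within a group. Per exonic kilobase, an alternative added after the data were seen, RBBP4 came first and EZH2 next, with 27.99 and 17.98 CPM per kilobase in CBL0137 and 31.6 and 17.5 in DMSO. EZH1 again had the lowest mean, at 4.71 in CBL0137 and 5.93 in DMSO. In DMSO EZH1 overlapped EED, at 5.80 and 6.06 against 6.11 and 5.86 for EED. EZH2 overlapped PHF1 in DMSO, at 17.97 and 17.04 against 17.71 and 16.16 for PHF1. JARID2 stood 3rd in CBL0137 and 4th in DMSO. The order in the middle differed between the scales.

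The balance within the complex was read as ratios inside each library, which scaling between libraries cannot move. There were 6.14 and 5.63 EZH2 counts for each EZH1 count in the CBL0137 libraries, against 4.77 and 4.33 in the DMSO libraries. The groups did not overlap, and the mean log2 ratio was 2.56 ± 0.09 in CBL0137 and 2.19 ± 0.10 in DMSO (SD), a difference of 0.37. An exact permutation test over the 4 libraries, two-sided, gave p = 0.333, the smallest that 2 against 2 libraries allow. In FPKM the EZH2 to EZH1 ratio was 10.9 and 6.83 in CBL0137 and 9.29 and 11.9 in DMSO, with overlap and the opposite sign (-0.29 as a mean log2 difference). The summed Polycomb-like genes over JARID2 plus AEBP2 gave 1.14 and 1.14 in CBL0137 against 1.70 and 1.68 in DMSO per exonic kilobase. In FPKM the same ratio was 2.68 and 2.59 in CBL0137 against 3.66 and 3.53 in DMSO. It was lower in CBL0137 on both scales without overlap, was formed after the values were seen and was not tested. PHF1 made up 36.98% and 39.3% of the Polycomb-like sum in CBL0137 and 45.7% and 43.0% in DMSO per exonic kilobase, and 27.3% and 33.1% in CBL0137 and 35.99% and 33.7% in DMSO in FPKM.

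**Figure D3:**
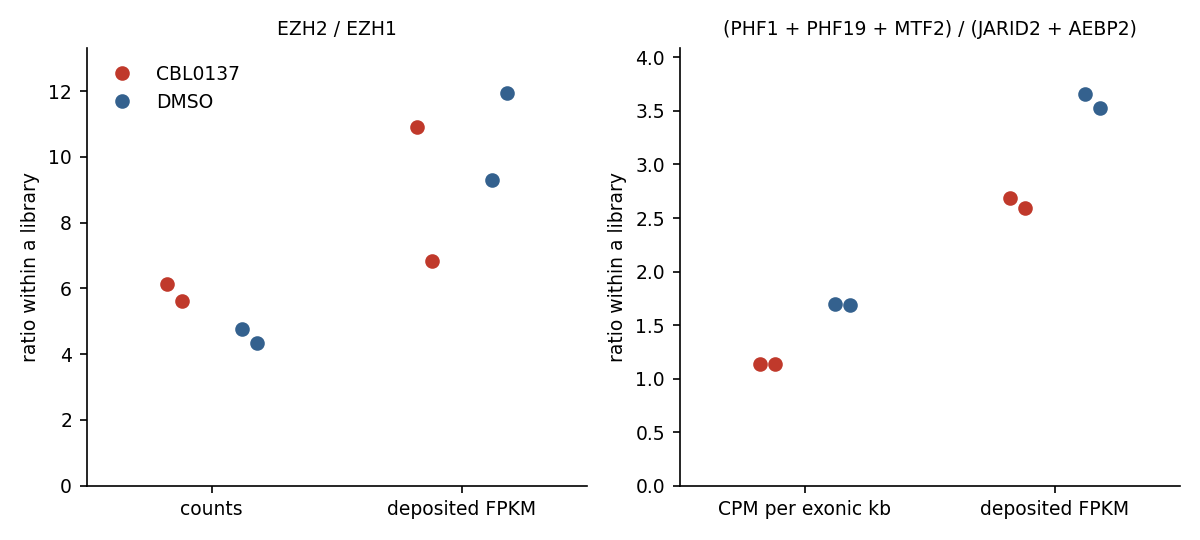
Ratios within each library for CBL0137 (left of each pair) and DMSO, with points as libraries. EZH2 over EZH1 (left panel) runs opposite ways in counts and in deposited FPKM, and the sum of PHF1, PHF19 and MTF2 over the sum of JARID2 and AEBP2 (right panel) is lower in CBL0137 both per exonic kilobase and in FPKM.

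**Figure D4:**
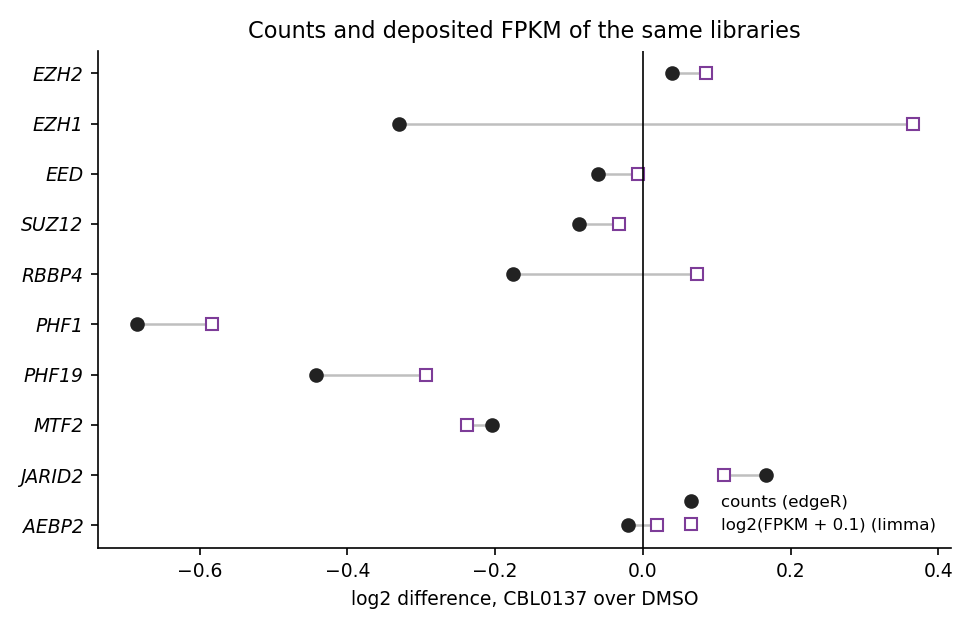
Log2 difference of each member, CBL0137 over DMSO, from counts (edgeR, filled circles) and from log2(FPKM + 0.1) of the same libraries (limma, open squares). PHF1, PHF19 and MTF2 are negative and JARID2 is positive on both scales, whereas EZH1 turns from -0.33 on counts to 0.37 on FPKM and RBBP4 from -0.18 to 0.07.

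Other genes that act with PRC2 changed in both directions, few of them past the fold limit. Beside RBBP7, the other PRC2-associated genes were LCORL at -0.36 ± 0.07 (edgeR adjusted p = 0.00039), LCOR at 0.01 ± 0.06 (edgeR adjusted p = 0.908) and EZHIP. LCORL and LCOR encode PRC2 accessory proteins, and EZHIP, an inhibitor of the enzyme, had 0 counts in every library, which allows up to 0.143 and 0.129 CPM in CBL0137 and 0.131 and 0.133 CPM in DMSO (3 counts, counting error only). edgeR called 0 of the 3 tested, as did DESeq2 and limma-voom, and 2 were lower at an edgeR adjusted p alone. Over all tested genes 9.61% were called, and 19.0% were lower and 17.5% higher at an adjusted p alone. PRC1 places ubiquitin on histone H2A and binds the mark of PRC2. Of its 22 tested genes 1 was called lower and 0 higher, and at an adjusted p alone 6 were lower and 4 higher, with a median log2 fold change of -0.006. The called gene was SCML2, a Polycomb protein with MBT repeats, at 13.9 and 15.3 CPM in CBL0137 and 23.2 and 23.6 CPM in DMSO (-0.68 ± 0.09, edgeR adjusted p = 2.2e-06). It was inside the fold limit on log2(FPKM + 1), at -0.46 (limma adjusted p = 0.0420, or 0.139 unfiltered), and called on log2(FPKM + 0.1). PHC2, a polymerising subunit, was higher in both CBL0137 libraries (0.28 ± 0.04), while its relative PHC3 (-0.25 ± 0.05) and the RING partner PCGF5 (-0.42 ± 0.08) were lower, with edgeR adjusted p of 5.1e-06, 1.7e-04 and 1.4e-04.

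No tested gene of the lists that counter Polycomb marks was called. Among all tested genes 9.61% were called, and 0 calls in lists this short lie near that share. Of 7 tested genes of PR-DUB, which removes the PRC1 mark, edgeR, DESeq2 and limma-voom called 0. At an edgeR adjusted p alone 3 were lower and 0 higher, against 19.0% and 17.5% of all tested genes. MBD5 (-0.43 ± 0.09), MBD6 (-0.21 ± 0.05) and the deubiquitinase BAP1 (-0.19 ± 0.06) were lower at edgeR adjusted p of 7.5e-04, 0.00177 and 0.0110, and ASXL1 measured -0.09 ± 0.04 (0.0862). Of 6 genes that demethylate or acetylate H3K27 or act beside the demethylase KDM6A, the same tools called 0. At an edgeR adjusted p alone 1 was higher and 1 lower. CREBBP, an H3K27 acetyltransferase, was at 0.16 ± 0.05 and the demethylase KDM6B at -0.17 ± 0.05 (edgeR adjusted p = 0.00993 and 0.0142), with KDM6A at 0.10 ± 0.05 and KMT2D at -0.09 ± 0.04 not past the test. Of 5 H3K36 methyltransferases, whose marks hinder PRC2, the same tools called 0. At an edgeR adjusted p alone 1 was higher and 2 were lower. NSD2 was at 336 ± 6.04 CPM in CBL0137 and 443 ± 1.61 CPM in DMSO (-0.40 ± 0.03, edgeR adjusted p = 1.1e-09), NSD3 at -0.16 ± 0.04 and ASH1L at 0.15 ± 0.04 (0.00443 and 0.00609), and NSD1 at -0.11 ± 0.05 (0.0656).

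**Figure D5:**
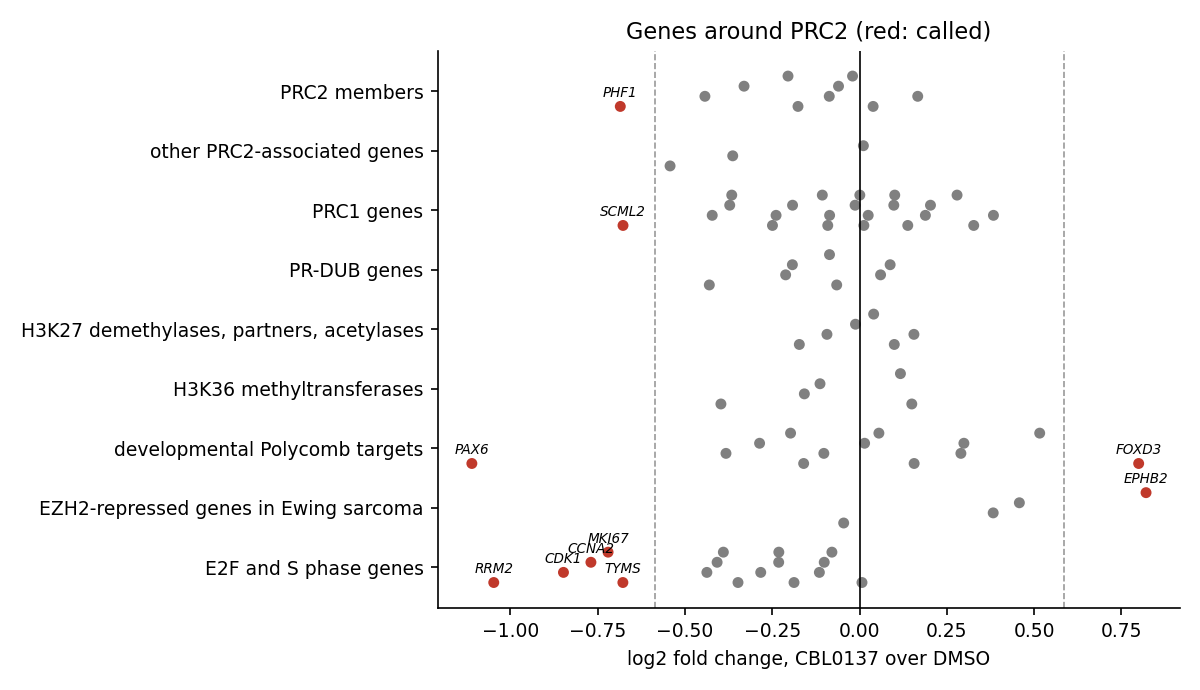
Log2 fold change, CBL0137 over DMSO, of the tested genes of each list around PRC2, 1 point per gene, spread vertically for visibility, with dashed lines at a 1.5-fold change and called genes in red with their names. PHF1 and SCML2 are the calls among Polycomb genes, 5 E2F and S phase genes lie between -1.05 and -0.68, and PAX6 lies farthest left, at -1.11.

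Developmental genes that PRC2 is known to silence did not move one way. Of 29 developmental regulators often marked by Polycomb, 16 were below the count filter and 13 were tested. Of these 1 was called higher and 1 lower, against 6.88% and 2.73% of all tested genes. Their median log2 fold change was 0.01. PAX6, an eye and brain regulator, was at 23.6 and 24.2 CPM in CBL0137 and 51.9 and 51.5 CPM in DMSO (-1.11 ± 0.07, edgeR adjusted p = 2e-12). On log2(FPKM + 1) PAX6 was at -0.59 (limma adjusted p = 0.122) and on log2(FPKM + 0.1) at -0.68 (0.127), and 0 genes of this list were called on FPKM. FOXD3, a neural crest factor, was at 4.71 and 2.93 CPM in CBL0137 and 2.36 and 1.996 CPM in DMSO (0.80 ± 0.25, edgeR adjusted p = 0.0128). The call of FOXD3 was lost under DESeq2 (adjusted p = 0.126), without CBL0137 replicate 1 (0.42) and without DMSO replicate 2 (0.68, adjusted p = 0.0613). WT1 (0.52 ± 0.06), PAX7 (-0.29 ± 0.04) and SOX1 (-0.38 ± 0.06) passed the test inside the fold limit, at edgeR adjusted p of 3.6e-07, 1.1e-06 and 7.1e-06. Of 5 genes known to rise in Ewing sarcoma cells when EZH2 is lost, 4 were tested, with a median of 0.42. Of these 1 was called higher and 3 were higher at an adjusted p alone, against 6.88% and 17.5% of all tested genes. EPHB2, an ephrin receptor, was at 45.4 and 44.6 CPM in CBL0137 and 27.2 and 23.7 CPM in DMSO (0.82 ± 0.07, edgeR adjusted p = 2.3e-09). The neurotrophin receptor NGFR measured 160 and 154 CPM in CBL0137 and 120 and 121 CPM in DMSO (0.38 ± 0.04, edgeR adjusted p = 8.3e-08), and the growth cone protein GAP43 was at 0.46 ± 0.10 (4.9e-04). EMP1 was at -0.05 ± 0.07 (0.645), and GFAP had 3 to 9 counts per library. H3K27 methylation and protein were not analysed here, and the part of PRC2 in these values was not tested.

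E2F and S phase genes, the class to which EZH2 is usually counted, were mostly lower. Of 17 without EZH2, 5 were called lower and 0 higher, against 2.73% and 6.88% of all tested genes. At an adjusted p alone 13 were lower, against 19.0% of all tested genes, and the median was -0.35. RRM2, a subunit of ribonucleotide reductase, was at -1.05 ± 0.04, CDK1 at -0.85 ± 0.05, CCNA2 at -0.77 ± 0.04 and TYMS at -0.68 ± 0.08, with MKI67 as given above (edgeR adjusted p = 1.3e-16, 1.6e-13, 6.5e-13 and 9.2e-08). MCM2, MCM4, MCM5, MCM6, MCM7, PCNA, DNMT1 and HELLS passed the adjusted p inside the fold limit, at -0.44 to -0.115. They too were named after their values were seen. The 4 that did not pass, named after their values were seen, were UHRF1 at 0.007, MCM3 at -0.08, E2F1 at -0.10 and CCNE2 at -0.23 (edgeR adjusted p = 0.915, 0.0964, 0.158 and 0.366). The value of EZH2 on the same scale was 0.04. Whether cell cycle phase had a part in the values of PHF1, PHF19 or MTF2 was not tested.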

How the data were processed

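RNA-seq of 2 CBL0137 and 2 DMSO libraries of A673 cells was used, with groups and replicate numbers taken from sample titles. The deposited counts per gene come from HTSeq 0.11.1, after HISAT2 alignment to hg19 of reads trimmed with Trim Galore, per the submitters' processing notes, which also name DESeq2 1.26.0 and, beside hg19, a mouse build with no stated role. FPKM per gene was deposited beside the counts, and per the labels the authors derived it from gene length and depth. The tool behind FPKM, the annotation release and the use of strand are not given in the sources used here.

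HTSeq summary rows (23.7% to 24.8% of reads) and 1 leftover header row were left out of library sizes and tests. Gene IDs were matched to GENCODE release 44 on GRCh37, the same assembly as hg19, which named 58524 of 60617. Counts were tested with edgeR 4.0.16 in R 4.3.3 (TMM factors, filterByExpr at a minimum count of 10, quasi-likelihood test of CBL0137 against DMSO, Benjamini-Hochberg over all tested genes). The standard error is the log2 fold change divided by the square root of F, and intervals use 95% limits of the t distribution. The limits for a call (adjusted p 0.05, fold 1.5) are those of the series' design. The script was tested on simulated data first. DESeq2 1.42.0 and limma 3.58.1 (voom on counts, trend on log2(FPKM + 1) for an FPKM of at least 1 in 2 libraries) were alternatives. Scaling was also done with RLE factors, with upper-quartile factors and by library size alone. Count filters and fold limits were varied, a replicate block was added, and each library was left out in turn, which takes the spread of the remaining pair for the single library too.

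The members and gene lists were chosen with earlier results of these data known. All members are named, with genes that overlap or copy them and MKI67. Of other lists, called genes and up to 4 with the smallest adjusted p are named, and the E2F and S phase list is named in full. EPCAM, CDH1 and ESRP1 were in the epithelial list with GRHL2. The summed level of the blood list is not reported here. PECAM1 of the endothelial list had no matching row. Start-site sequences come from RefSeq on GRCh38.p14, where all 10 members matched.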

Additional observations from a re-analysis of the deposited data

How the results depend on the processing

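Over 17 alternatives, PHF1 stayed the only called member in 12. With a fold limit of 1.2, 3 members were called, and 0 were with a limit of 2 or with any of the 3 limma fits of FPKM. The number of members past the adjusted p was 6, and it was 4 under DESeq2 and 1 on log2(FPKM + 1) and on log2(FPKM + 0.1). It was 0 when low FPKM values were not filtered, where limma called 0 genes of the whole table (0 at an adjusted p alone). Without 1 library, 1 member was called each time, 5 to 6 passed the adjusted p, and 1343 to 1591 of all genes were called, against 1663. Among all genes DESeq2 called 923, limma on FPKM 577 and 726 with the pseudocounts 1 and 0.1, and edgeR 4230 at a fold limit of 1.2 and 736 at 2. The EZH2 to EZH1 log2 difference of 0.37 was -0.29 in FPKM and 0.30 to 0.44 without 1 library.

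Signs turned as follows, and where no construction shows it the cause was not tested. On FPKM with the pseudocounts 1 and 0.1, and 1 unfiltered, EZH1 was at 0.31, 0.37 and 0.31, RBBP4 at 0.073, 0.074 and 0.073, AEBP2 at 0.017, 0.020 and 0.017, ASXL1 at 0.42, 0.44 and 0.42, NSD1 at 0.30, 0.49 and 0.30, and LCOR at -0.033, -0.044 and -0.033. AEBP2 was also at 0.028 with upper-quartile factors, 0.042 with library size alone and ran from -0.079 to 0.034 without 1 library. EED was at 0.0013 with library size alone, and EZH2 ran from -0.007 (without CBL0137 replicate 1 or DMSO replicate 2) to 0.079 (without CBL0137 replicate 2). EMP1 was at 0.0022 with upper-quartile factors, 0.016 with library size alone and -0.18 to 0.064 without 1 library. LCOR was at -0.0007 with no count filter and -0.046 to 0.059 without 1 library. None of these turned values passed the adjusted p.

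Replicate numbers are shared between the groups, but nothing says that they mark a common culture, and deviations of same-numbered libraries had a correlation of -0.09 over 11339 genes. With the replicate number as a block, 1576 genes, 1 member (PHF1) and 6 members at an adjusted p alone passed, and the EZH2 to EZH1 difference was 0.37. The median log2 fold change of all genes moved to 0.05 with upper-quartile factors and 0.06 with library size alone. Below the count filter, 16 of the 29 developmental regulators could not be tested.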
